A study of Mus musculus with 8 samples.

Results

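A set of 10 genes of the Hippo pathway and its transcription factors was followed in cultured mouse ovarian follicular cells in which FOXL2, a transcription factor of granulosa cells, was targeted with siRNA and the hormone 17β-estradiol (E2) was added or not. The genes were Yap1 and Wwtr1, Tead1 to Tead4, Lats1 and Lats2, and Amotl2 and Ankrd1. Each was found through its mouse Entrez gene ID in the deposited table of values, and all 10 were present among the 24232 genes measured. All 10 also passed the filter on dim genes that left 15637 genes for testing, and all were well above background on 8 of 8 arrays, so no member was left out.

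The Hippo pathway is a chain of kinases that holds back tissue growth. Its last kinases, LATS1 and LATS2, phosphorylate the coactivators YAP (Yap1) and TAZ (Wwtr1) and keep them out of the nucleus. Unphosphorylated YAP and TAZ enter the nucleus and bind TEAD factors on DNA, and genes such as Ccn1, Ccn2, Ankrd1 and Amotl2 are then transcribed. In the ovary the pathway is known for restraining the growth of follicles. Much of its control acts on the proteins, through phosphorylation and location, which RNA arrays do not measure.

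The cells came from preantral follicles of female Swiss mice, 8 weeks old, and each replicate was a pool of 5 animals. They were dispersed, grown as monolayers and lysed after 9 days in culture, and the labels call them mostly granulosa cells. In the first group, control siRNA with vehicle, cells received 12 pmol of siRNA with no target. The second group, control siRNA with E2, received 100 nM E2 in addition, and the third (FOXL2 siRNA, vehicle) and the fourth (FOXL2 siRNA, E2) received an siRNA pool against Foxl2 in place of the control. Every group also received 200 ng of pDsRed plasmid in the transfection, the siRNAs acted for 24 h, and vehicle or E2 was given for 10 h before lysis. The sources differ on whether the 24 h include these 10 h. Each group had 2 arrays, numbered as biological replicates, and all 8 lay on 1 slide that was scanned once. Levels are given as log2 of the background-subtracted spot signal after scaling each array to its 75th percentile. A change is a difference of such log2 values between groups, and a gene was called where the limma adjusted p, over all genes tested, fell below 0.05. Levels of different genes come from different probes and are not set against each other.

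Several facts of the arrays bear on every direction below. The signal of Foxl2 itself was not lower with its siRNA: the gene changed by 0.18 (SE 0.10, limma adjusted p = 0.334), while its dim probe, which gave 0.43% of that signal, fell (-0.97, adjusted p = 0.0199). The study itself reported, by qPCR in such cells, that each siRNA pool lowered its target mRNA, that of Foxl2 included. Whether that qPCR covered the samples of these arrays was not stated. The groups below are therefore named by their labels, FOXL2 siRNA and control siRNA. The main fit leaves out the replicate number, although same-numbered arrays deviated from their group means together (correlations of 0.327 to 0.445). Whether that number pairs the samples was not established. If it does, the main fit counts differences between pools as spread, and a gene not called there may be called with pairing. A fit with the replicate number as a block, which called more genes, is given as an alternative. Of 10 granulosa markers, 7 were well above background on every array, and Fshr and Amh on none. Of the 8 tested, 4 had changes above 0 and 4 below (median 0.04): Hsd17b1 and Esr2 were lower with FOXL2 siRNA (-1.47 and -0.46, adjusted p = 0.00222 and 0.0167), and the other 6, from Cyp19a1 at -0.75 to Amhr2 at 0.41, were not called. Of 6 theca markers 5 were in the table, with Lhcgr not well above background on any array, hereafter at background. Their summed scaled signal was 20873 to 23864 on control arrays and 38802 to 41318 on FOXL2 siRNA arrays. Cyp11a1, which granulosa cells also express, gave the largest part of that sum and was the called member (0.89, adjusted p = 0.000195). The other 3 tested theca markers, among them Cyp17a1, were not called. The sum of 4 surface epithelium markers was 237 to 446 and 669 to 977, with Upk1b and Upk3b called (1.30 and 1.47, adjusted p = 0.00282 and 0.00445). Of 8 oocyte markers 6 were at background, as were Ptprc and Lyz2 of 6 macrophage markers, Cdh5, Tek and Emcn of 5 endothelial markers and Myh11 of 6 stromal markers. Well above background on every array were 3 macrophage, 2 endothelial and 4 stromal markers, and none of those tested was called over both treatments. Their summed signals on control and FOXL2 siRNA arrays were 505 to 562 and 542 to 673 for macrophage markers, 1102 to 1816 and 1592 to 1954 for endothelial markers, and 13619 to 18334 and 17121 to 17985 for stromal markers. Col1a1, a fibrillar collagen chain, had the largest change among these markers (1.10, SE 0.33, adjusted p = 0.0739), and its control and FOXL2 siRNA arrays did not overlap. The part of these other cell types in the changes below was not tested, and in bulk RNA fewer cells of a type and less RNA per cell cannot be told apart.

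Promoters are shown for the pathway genes described most closely below, Ankrd1 and Amotl2 as targets of YAP and TEAD, and Tead2 as the TEAD gene that was lower with FOXL2 siRNA. The sequences are RefSeq promoter windows on GRCm38.p6, 250 bases that end just before the annotated start, written 5′ to 3′ on the strand of the gene. Capitals mark GGAATG, the core of TEAD binding sites, or its reverse complement CATTCC. The windows are chr19:36119845-36120094 on the minus strand for Ankrd1, chr9:102717554-102717803 on the plus strand for Amotl2 and chr7:45215542-45215791 on the plus strand for Tead2.
Ankrd1: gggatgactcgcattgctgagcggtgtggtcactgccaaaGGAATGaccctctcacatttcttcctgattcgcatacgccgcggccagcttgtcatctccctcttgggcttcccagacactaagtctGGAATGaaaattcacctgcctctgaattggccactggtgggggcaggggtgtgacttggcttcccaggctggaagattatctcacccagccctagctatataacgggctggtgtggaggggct
Amotl2: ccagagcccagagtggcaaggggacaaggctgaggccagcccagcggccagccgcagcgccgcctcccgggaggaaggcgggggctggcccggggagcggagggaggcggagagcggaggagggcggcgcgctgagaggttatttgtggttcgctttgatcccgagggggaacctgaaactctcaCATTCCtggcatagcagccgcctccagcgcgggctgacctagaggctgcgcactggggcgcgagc
Tead2: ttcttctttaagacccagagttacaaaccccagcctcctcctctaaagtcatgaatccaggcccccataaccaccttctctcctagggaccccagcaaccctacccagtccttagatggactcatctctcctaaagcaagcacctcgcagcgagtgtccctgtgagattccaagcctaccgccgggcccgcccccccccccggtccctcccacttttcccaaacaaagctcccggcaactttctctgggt

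Ankrd1 held 2 copies of GGAATG, 210 and 123 bases before its start, and Amotl2 held 1 CATTCC, 65 bases before its start. Tead2 held none in this window. Windows were at hand for 8 of the 10 genes, all but Tead1 and Tead4, and 5 of these 8 held the TEAD letters: Yap1, Wwtr1, Tead3, Amotl2 and Ankrd1. Several genes have more than 1 window, some of them overlapping, and 7 of the 12 windows held a match. Over all 32851 promoter windows of the same length the share was 12.6%. Of the target genes described later, 13 had windows, and 3 of these (Ccn1, Axl and Crim1), with 3 of 14 windows, held the TEAD letters. The forkhead letters GTAAACA, searched with their reverse complement TGTTTAC because FOXL2 is a forkhead factor, were in none of the 12 windows, in 1 window of the target genes (Axl) and in 3.17% of all windows. The palindromic estrogen response element, an inverted repeat with a short spacer, was in none of either set, against 0.0639% of all windows. A match to these letters is a description of the sequence, not a measured binding site.

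The first question was whether the pathway's genes differ between FOXL2 siRNA and control siRNA. Across both treatments, Tead1 and Ankrd1 were higher with FOXL2 siRNA and Tead2 was lower, and the other 7 genes were not called. These 3 called members compare with a background of 12.6% of all genes tested. The members were chosen with earlier results of these data known, so such counts are descriptions. With vehicle, Tead1 and Ankrd1 were called higher, 2 of 10 members beside 6.56% of all genes called and 3.63% called higher. With E2, Tead2 was called lower, 1 of 10 members beside 4.39% of all genes called and 2.14% called lower. The median change of the 10 genes was 0.23 over both treatments, beside -0.0026 for all genes tested, with 6 genes up and 4 down in sign. The arrays of FOXL2 siRNA and control siRNA did not overlap for 8 of 10 genes with vehicle, for 5 with E2 and for 4 over both treatments, while this held for 46.0%, 48.0% and 20.9% of all genes.

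**Figure D1:**
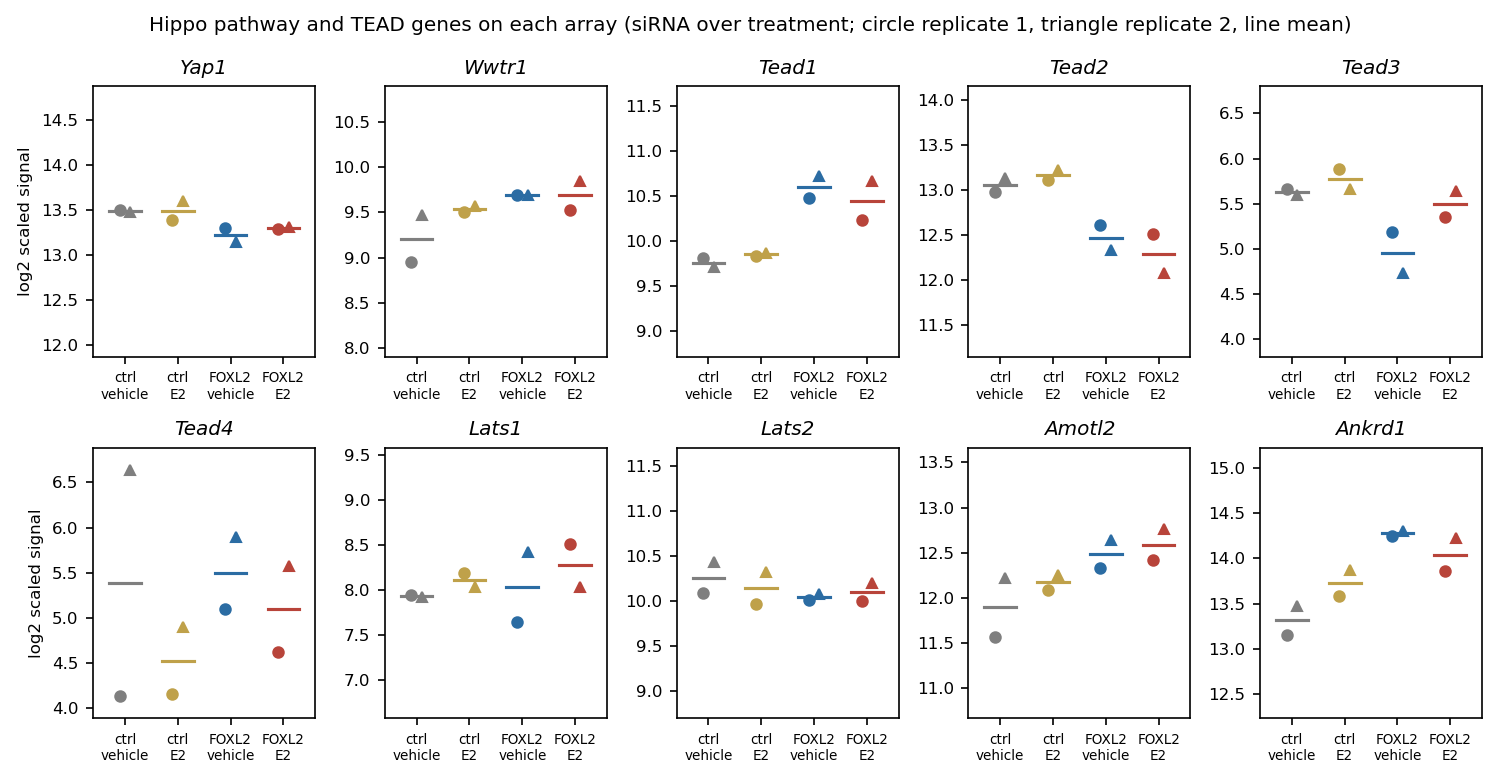
The log2 scaled signal of each of the 10 genes on each of the 8 arrays, by siRNA (ctrl, control) and treatment, with circles for replicate 1, triangles for replicate 2 and lines for group means; every panel spans the same number of log2 units around its own centre. Tead1 sits higher and Tead2 lower on all 4 FOXL2 siRNA arrays than on any control array, and the replicates of Tead4 lie farthest apart.

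Among the coactivators, Yap1 had nearly the same level on all arrays. Its log2 level was 13.50 and 13.47 in vehicle-treated controls, 13.39 and 13.59 in E2-treated controls, 13.30 and 13.15 after FOXL2 siRNA with vehicle, and 13.28 and 13.31 after FOXL2 siRNA with E2. All 4 FOXL2 siRNA arrays were below all 4 control arrays, but by little. The change over both treatments was -0.23 (SE 0.07, adjusted p = 0.0721). It was -0.26 under vehicle and -0.19 under E2, and none of these values was called. With quantile normalization in place of the 75th percentile the call over both treatments was made (-0.26, adjusted p = 0.0167). It was also made with the replicate number as a block (-0.23, adjusted p = 0.0217).

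Wwtr1, which codes for TAZ, leaned the other way. It stood at 8.95 and 9.47 in vehicle-treated controls, at 9.50 and 9.57 in E2-treated controls, at 9.70 and 9.69 after FOXL2 siRNA with vehicle, and at 9.52 and 9.85 after FOXL2 siRNA with E2. The replicate 1 array of the vehicle-treated controls was the lowest of the 8, and the groups overlapped over both treatments. The change was 0.49 for vehicle (adjusted p = 0.183), 0.15 for E2 (adjusted p = 0.761) and 0.32 over both (SE 0.13, adjusted p = 0.157). With 1 array left out the Wwtr1 change over both treatments lay between 0.19 and 0.45, highest without replicate 2 of the vehicle-treated controls. With all arrays and the replicate number as a block that change was called (0.32, adjusted p = 0.0163).

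The TEAD factors, which bring YAP and TAZ to DNA, went in different directions. Tead1 was at 9.81 and 9.71 in vehicle-treated controls, 9.83 and 9.87 in E2-treated controls, 10.48 and 10.72 after FOXL2 siRNA with vehicle, and 10.23 and 10.66 after FOXL2 siRNA with E2. The lowest FOXL2 siRNA array was thus above the highest control array. Tead1 was 1.64-fold higher over both treatments (log2 change 0.72, SE 0.11, limma adjusted p = 0.00489). With vehicle the change was 0.84 (SE 0.15, adjusted p = 0.0189), and with E2 it was 0.60 (SE 0.15, adjusted p = 0.0807), which was not called. The Tead1 effect with E2 minus that with vehicle was -0.24 (95% interval -0.74 to 0.26), and that difference was not called. The call over both treatments stood when any 1 array was left out, at 0.61 to 0.82, with a highest adjusted p of 0.0255. The call with vehicle was lost without replicate 1 or 2 of the vehicle-treated controls (adjusted p = 0.0598 and 0.105) or without replicate 2 of the vehicle-treated FOXL2 siRNA cells (adjusted p = 0.122), where the change lay between 0.72 and 0.89.

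Tead2 mirrored Tead1 in sign. Its level was 12.98 and 13.13 in vehicle-treated controls, 13.11 and 13.22 in E2-treated controls, 12.62 and 12.33 after FOXL2 siRNA with vehicle, and 12.51 and 12.08 after FOXL2 siRNA with E2. Every FOXL2 siRNA array was below every control array. Over both treatments Tead2 was 1.66-fold lower (log2 change -0.73, SE 0.11, adjusted p = 0.00511). With E2 the change was -0.87 (SE 0.16, adjusted p = 0.0230), and with vehicle it was -0.58 (SE 0.16, adjusted p = 0.0741), which was not called. The difference between these Tead2 effects was -0.29 (95% interval -0.80 to 0.23) and was not called either. Leaving out any 1 array kept the call over both treatments (-0.84 to -0.62, highest adjusted p = 0.0256). The call with E2 was lost without replicate 1 or 2 of the E2-treated controls (adjusted p = 0.111 and 0.140) or without replicate 2 of the E2-treated FOXL2 siRNA cells (-0.66, adjusted p = 0.115), and the Tead2 value with vehicle was called without replicate 1 or 2 of the E2-treated FOXL2 siRNA cells (adjusted p = 0.0391 in both cases).

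Both genes have several probes on the array, which allowed the direction to be read more than once. The brightest Tead1 probe, A_51_P214423, gave 91.6% of the gene's signal and was higher by 0.74 (SE 0.11) as the mean of both treatments, with an adjusted p of 0.00576 over all probes. Its dimmer probes, A_55_P2011390 and A_55_P2159885, changed by 0.48 and 0.36 and were not called (adjusted p = 0.122 and 0.332). The Tead2 probes A_55_P2129271 and A_55_P2076846, with 59.4% and 40.6% of the signal, changed by -0.69 and -0.78 and were both called (adjusted p = 0.00708 and 0.00803). The Tead1 value is therefore that of 1 probe for the most part, while the Tead2 value was read by both of its probes.

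**Figure D2:**
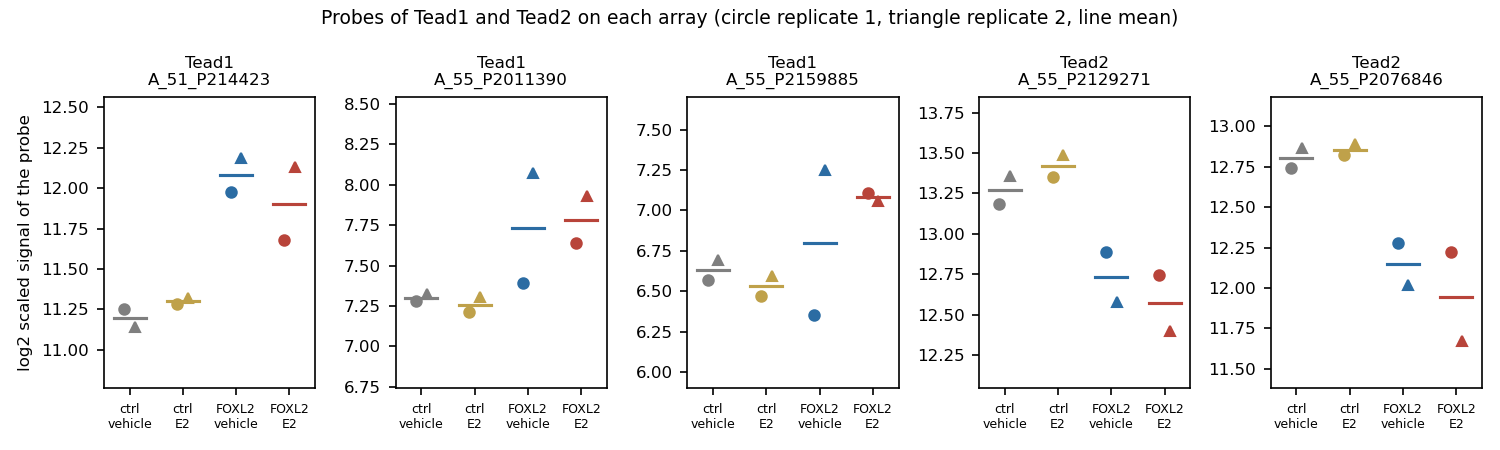
The log2 scaled signal of the 3 probes of Tead1 and the 2 probes of Tead2 on each array, by siRNA (ctrl, control) and treatment, with circles for replicate 1, triangles for replicate 2 and lines for group means; panels have the same span and their own centre. The Tead1 probes A_51_P214423 and, narrowly, A_55_P2011390 separate the FOXL2 siRNA arrays from the control arrays, as do both Tead2 probes. The dimmest Tead1 probe does not.

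Tead3 and Tead4 gave weak signals. Tead3 was at 5.67 and 5.60 in vehicle-treated controls, 5.88 and 5.66 in E2-treated controls, 5.18 and 4.73 after FOXL2 siRNA with vehicle, and 5.35 and 5.64 after FOXL2 siRNA with E2. Its highest FOXL2 siRNA array lay above its lowest control array. Its change was -0.68 for vehicle (SE 0.24, adjusted p = 0.158), -0.28 for E2 and -0.48 over both (SE 0.17, adjusted p = 0.110), and none was called. With the replicate number as a block the Tead3 value over both treatments was called (adjusted p = 0.0455).

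Tead4 was at 4.14 and 6.64 in vehicle-treated controls, 4.16 and 4.89 in E2-treated controls, 5.10 and 5.90 after FOXL2 siRNA with vehicle, and 4.62 and 5.57 after FOXL2 siRNA with E2. The control replicates with vehicle had an SD of 1.77 around 5.39 (n = 2), far above that of any other member, and replicate 2 was the higher array in every group. The change over both treatments was 0.34 with an interval of -0.91 to 1.59, so these arrays left its size and sign open. Its sign turned without replicate 1 of the vehicle-treated controls (-0.29).

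The kinases that phosphorylate YAP and TAZ showed no called change. Lats1 was at 7.95 and 7.92 in vehicle-treated controls, 8.19 and 8.03 in E2-treated controls, 7.65 and 8.42 after FOXL2 siRNA with vehicle, and 8.52 and 8.04 after FOXL2 siRNA with E2, with the FOXL2 siRNA arrays on either side of the controls. Its change over both treatments was 0.13 (95% interval -0.29 to 0.56, adjusted p = 0.708), and the sign turned without replicate 2 of the vehicle-treated FOXL2 siRNA cells (-0.06). Lats2 was at 10.09 and 10.43, 9.97 and 10.33, 10.02 and 10.08, and 10.00 and 10.21 in the same order of groups. Its change was -0.13 (95% interval -0.39 to 0.13, adjusted p = 0.516), and both of its probes, A_52_P315345 and A_55_P2002351, were within the spread (-0.15 and -0.01).

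Ankrd1 and Amotl2 were the members described here as targets of YAP and TEAD. Ankrd1, an ankyrin repeat protein first known from heart muscle, was higher with FOXL2 siRNA. Its level was 13.15 and 13.47 in vehicle-treated controls, 13.59 and 13.87 in E2-treated controls, 14.25 and 14.30 after FOXL2 siRNA with vehicle, and 13.86 and 14.23 after FOXL2 siRNA with E2. The vehicle groups stood apart, while with E2 the lower FOXL2 siRNA array fell just below the higher control array. Over both treatments Ankrd1 was 1.56-fold higher (log2 change 0.64, SE 0.11, adjusted p = 0.0103). With vehicle the change was 0.96 (SE 0.16, adjusted p = 0.0142), a 1.95-fold difference, and with E2 it was 0.31 (SE 0.16, adjusted p = 0.400). The call over both treatments stood without any 1 array (0.54 to 0.73, highest adjusted p = 0.0427). The call with vehicle was lost without replicate 1 of the vehicle-treated controls (0.80, adjusted p = 0.0601) and without replicate 1 or 2 of the vehicle-treated FOXL2 siRNA cells (adjusted p = 0.0650 and 0.0911).

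Amotl2, an angiomotin family protein that binds YAP and whose gene YAP activates, had levels of 11.57 and 12.22 in vehicle-treated controls, 12.09 and 12.25 in E2-treated controls, 12.34 and 12.64 after FOXL2 siRNA with vehicle, and 12.42 and 12.76 after FOXL2 siRNA with E2. All FOXL2 siRNA arrays were above all control arrays, the narrowest gap lying between 12.25 and 12.34. The change over both treatments was 0.50 (SE 0.16, adjusted p = 0.0761) and was not called, with 0.59 for vehicle and 0.42 for E2. With the replicate number as a block each of these values was called (adjusted p = 0.000303, 0.00175 and 0.0192). Whether that number pairs the samples was not established. With 1 array left out the Amotl2 change over both treatments lay between 0.34 and 0.67, highest without replicate 2 of the vehicle-treated controls.

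**Figure D3:**
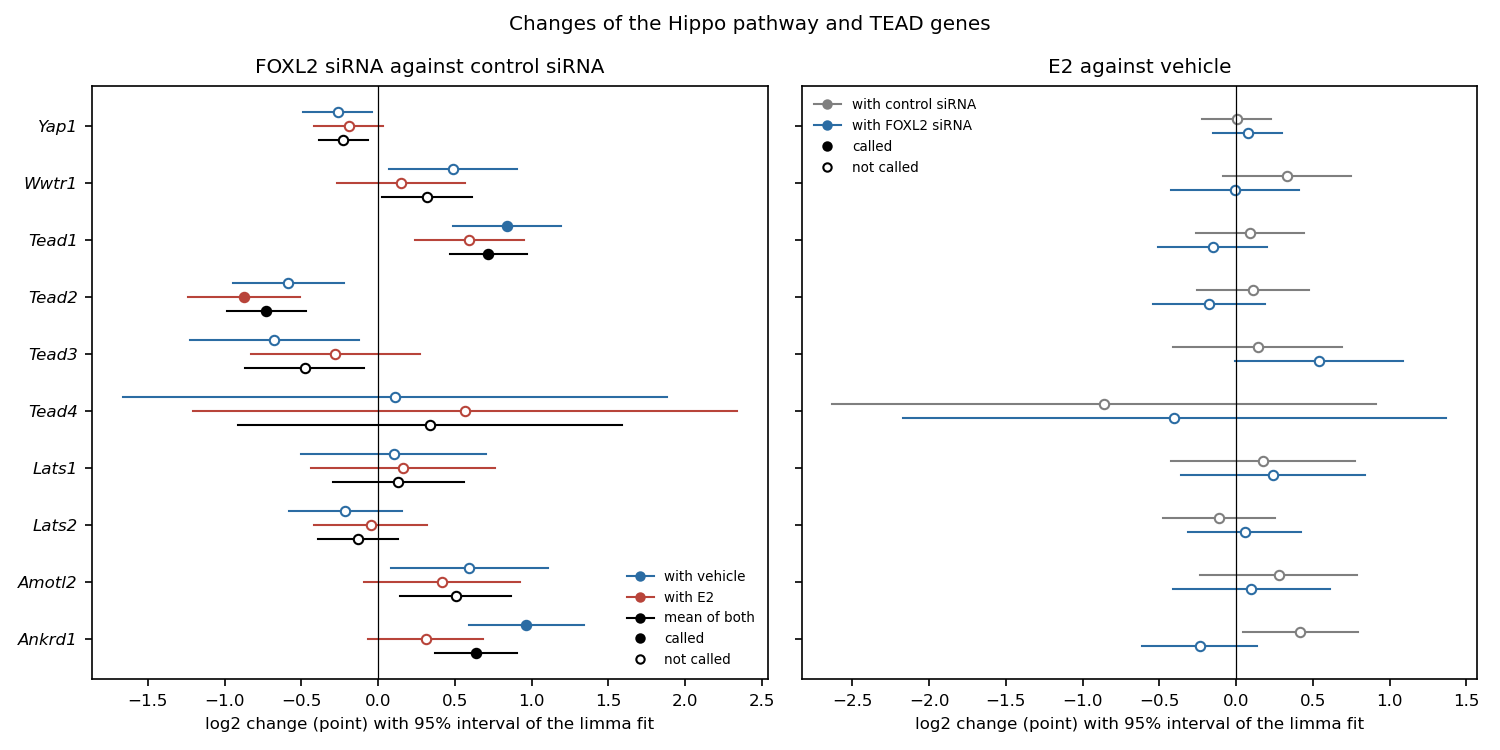
Log2 changes of the 10 genes (points) with 95% intervals of the limma fit (lines), for FOXL2 siRNA against control siRNA with vehicle, with E2 and as the mean of both (left), and for E2 against vehicle with each siRNA (right); filled points were called. On the left Tead1 (0.72) and Ankrd1 (0.64) lie above 0 and Tead2 (-0.73) below it as means, and on the right no point is filled.

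The second question was whether E2 moves these genes, and whether that depends on FOXL2. No member was called for E2 with control siRNA, where 0.0192% of all genes were called, or with FOXL2 siRNA, where 0.0128% were. The mean of both E2 effects called 0% of all genes, none of 15637. An unadjusted limma p below 0.05 was found for 360 genes, none of them a member. With control siRNA 716 genes had such a p, and with FOXL2 siRNA 478. Each count is below the share of 0.05 that such p-values give where nothing changes. With the replicate number as a block, 182 and 96 genes were called with control and FOXL2 siRNA, and no member. The absence of calls therefore does not show that E2 left the members unchanged. The arrays of E2 and vehicle did not overlap for 4 of 10 genes with control siRNA and for 2 with FOXL2 siRNA, beside 27.2% and 27.6% of all genes.

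Ankrd1 was the only member whose E2 interval left out 0. With control siRNA its change on E2 was 0.42 (SE 0.16, 95% interval 0.04 to 0.79) and with FOXL2 siRNA it was -0.24 (SE 0.16, 95% interval -0.61 to 0.14), with no overlap between the arrays in either case. The 2 effects differed by -0.65 (95% interval -1.18 to -0.12), but after adjustment over all genes the difference was not called (adjusted p = 0.824). Across all genes 0.243% were called for that difference, and none of the 10 members was. With the replicate number as a block the Ankrd1 difference was called (adjusted p = 0.0196), but whether that number pairs the samples was not established. The E2 effect with control siRNA and the FOXL2 siRNA effect with vehicle share the arrays of the vehicle-treated controls, so their values for Ankrd1 are not separate readings.

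The other members had small or uncertain E2 values. Tead3 changed by 0.54 with FOXL2 siRNA (95% interval -0.01 to 1.09) and by 0.14 with control siRNA. Tead4 changed by -0.86 with control siRNA, with an interval of -2.63 to 0.91, and the sign turned to 0.39 without replicate 2 of the vehicle-treated controls. Yap1 changed by 0.00 with control siRNA and 0.07 with FOXL2 siRNA, with intervals of -0.22 to 0.23 and -0.15 to 0.30. For Tead1, Tead2, Lats1, Lats2, Wwtr1 and Amotl2, E2 values lay between -0.18 and 0.33 with either siRNA.

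The wider pathway was described through a list of 25 upstream regulators and cofactors, of which 22 were tested. This list, too, was chosen with earlier results of these data known. Frmd6 and Vgll2 were not well above background on any array, and Fat4 was below the filter. Over both treatments 3 were higher and 2 lower with FOXL2 siRNA, and 17 were not called, beside the 12.6% of all genes called, and the median change was 0.09. Sav1, the scaffold that holds the first kinases of the chain together, fell the most. It was at 12.06 and 12.00 in vehicle-treated controls, 12.10 and 11.91 in E2-treated controls, 11.37 and 10.84 after FOXL2 siRNA with vehicle, and 11.25 and 10.77 after FOXL2 siRNA with E2, with no overlap. Its change was -0.96 (SE 0.14, adjusted p = 0.00458), and both treatments alone gave calls, at -0.93 under vehicle (adjusted p = 0.0360) and -0.999 under E2 (adjusted p = 0.0350). Vgll4, a cofactor that competes with YAP for TEAD, was lower by a smaller amount (-0.45, SE 0.09, adjusted p = 0.0159).

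Amot, an angiomotin that binds YAP like Amotl2, was the upstream gene with the largest rise. It was at 8.49 and 8.65 in vehicle-treated controls, 8.79 and 8.88 in E2-treated controls, 9.48 and 9.93 after FOXL2 siRNA with vehicle, and 9.22 and 9.84 after FOXL2 siRNA with E2, again with no overlap. Its change was 0.91 (SE 0.15, adjusted p = 0.00813). Vgll3, another cofactor that binds TEAD, changed by 0.79 (SE 0.15, adjusted p = 0.0120), and Taok1, a kinase that activates the chain from above, by 0.28 (SE 0.07, adjusted p = 0.0373). Sav1 and Amot were called over both treatments whichever array was left out. Taken by treatment, Sav1 was called in 3 of the 8 such fits with vehicle (lost without replicate 1 or 2 of either control group or replicate 2 of the vehicle-treated FOXL2 siRNA cells, -0.96 to -0.66) and in 3 with E2 (lost without replicate 1 or 2 of either control group or replicate 2 of the E2-treated FOXL2 siRNA cells, -1.09 to -0.76). Both of these Sav1 calls were also lost when low signals were kept (adjusted p = 0.0672 and 0.0681) or the intensity trend was dropped (0.0882 and 0.0931), and the one with vehicle with only the compared groups in the fit (0.0550). Vgll3 lost its call without replicate 2 of the E2-treated controls (0.74, adjusted p = 0.0514). Vgll4 lost it without replicate 1 of the E2-treated controls and without replicate 2 of the vehicle-treated or the E2-treated FOXL2 siRNA cells (-0.44 to -0.40, adjusted p up to 0.0672). Taok1 was called in only 2 of the 8 fits that left out 1 array and was lost in the others, at 0.23 to 0.31 with adjusted p of 0.0687 to 0.127, and also with no filter (0.0651) or no intensity trend (0.0866). The other 17 tested genes of the list, among them the first kinases Stk3 and Stk4 and the membrane protein gene Nf2, were not called.

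Genes known as targets of YAP and TEAD were described through a list of 20, of which 18 were tested, Foxf2 and Igfbp3 being at background. Over both treatments 6 were higher with FOXL2 siRNA and 0 lower, beside 6.40% of all genes called higher and 6.18% called lower. The median change was 0.21. The list was chosen with earlier results of these data known, so these counts are a description and not a test. The called genes were Ccn1, Ccn2, Ccnd1, Gadd45b, Nt5e and Tgfb2. Ccn2, Gadd45b, Nt5e and Tgfb2 were also called higher within each treatment alone, which gives 4 genes with vehicle, beside 3.63% of all genes called higher there, and 4 with E2, beside 2.25%. All 4 calls with vehicle and that of Nt5e with E2 held without any 1 array. With E2, Ccn2 (0.81 and 0.80), Tgfb2 (0.89 and 0.93) and Gadd45b (0.69 and 0.52) lost theirs without replicate 1 of the E2-treated controls or replicate 2 of the E2-treated FOXL2 siRNA cells, and Gadd45b also without replicate 2 of the E2-treated controls (0.65). Gadd45b with E2 was also lost with no filter (adjusted p = 0.0507), no intensity trend (0.0801) or only the compared groups in the fit (0.0615), and Ccn2 with E2 without the intensity trend (0.0517). Axl, a receptor kinase often read as a YAP target, had a change of 0.00 (95% interval -0.15 to 0.16).

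Ccn2, also called CTGF, is a secreted matrix protein. It was at 14.32 and 14.61 in vehicle-treated controls, 14.44 and 14.73 in E2-treated controls, 15.61 and 15.56 after FOXL2 siRNA with vehicle, and 15.39 and 15.69 after FOXL2 siRNA with E2. The lowest FOXL2 siRNA array exceeded the highest control array, and Ccn2 was 2.05-fold higher (log2 change 1.04, SE 0.11, adjusted p = 0.00107). Its relative Ccn1, also called CYR61, changed by 0.57 (SE 0.14, adjusted p = 0.0397). The Ccn1 call was held in 3 of the 8 fits that left out 1 array and lost in those without replicate 1 of the vehicle-treated controls, replicate 1 or 2 of the E2-treated controls, and replicate 2 of the vehicle-treated or the E2-treated FOXL2 siRNA cells (0.45 to 0.62, adjusted p of 0.0770 to 0.124). It was also lost with normexp background correction (adjusted p = 0.0552), quantile normalization (0.0551), no filter on low signals (0.0731) and no intensity trend (0.0867).

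Nt5e, the cell surface enzyme that makes adenosine from AMP, had the largest change of the list. It was at 8.90 and 9.16 in vehicle-treated controls, 8.43 and 8.77 in E2-treated controls, 10.27 and 10.32 after FOXL2 siRNA with vehicle, and 10.53 and 10.85 after FOXL2 siRNA with E2. It was 3.20-fold higher over both treatments (log2 change 1.68, SE 0.11, adjusted p = 0.000250). Tgfb2, a ligand of the TGF-β family, was at 8.29 and 8.48, 8.56 and 8.76, 10.08 and 9.80, and 9.59 and 9.71 in the same order, a 2.41-fold rise (1.27, SE 0.10, adjusted p = 0.000346). Gadd45b, a stress response gene, rose by 0.89 (SE 0.09, adjusted p = 0.00110). Ccnd1, which codes for cyclin D1 of the cell cycle, rose by 1.58 with a wide error (SE 0.33, adjusted p = 0.0186). Its call was lost without replicate 1 of the E2-treated controls, replicate 2 of the vehicle-treated controls or replicate 2 of the vehicle-treated FOXL2 siRNA cells (1.36 to 1.62, adjusted p up to 0.0685).

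**Figure D4:**
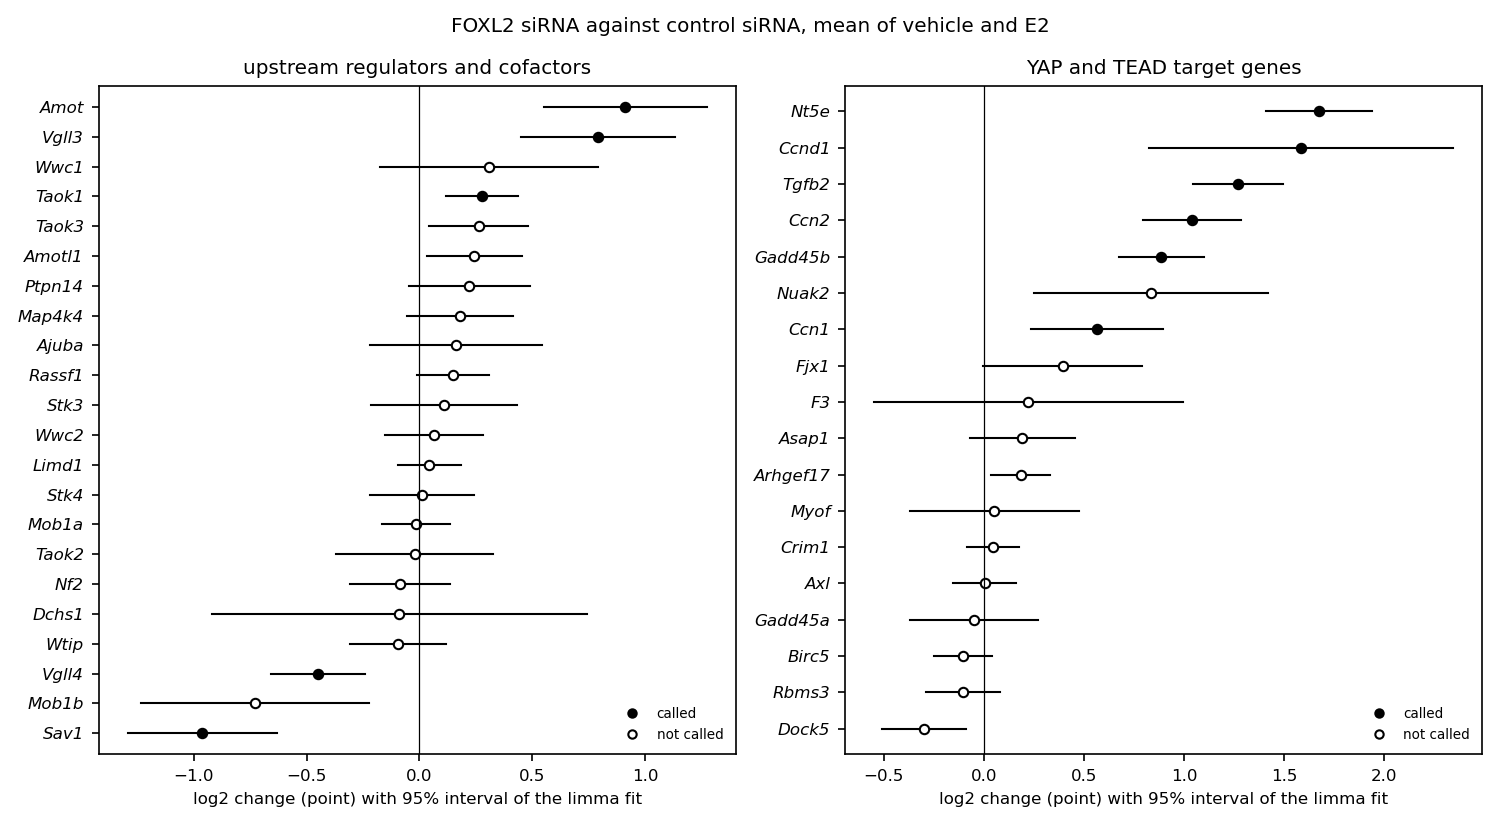
Log2 change with FOXL2 siRNA against control siRNA, as the mean of vehicle and E2, for the 22 tested upstream regulators and cofactors (left) and the 18 tested target genes (right), sorted by value, with 95% intervals of the limma fit; filled points were called. Sav1 and Vgll4 are the filled points below 0, and all 6 filled points among the targets lie above 0.

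On E2, none of the tested genes of either list was called with either siRNA, and none was called for the difference. Of the 18 targets, 14 had a positive E2 value with control siRNA (median 0.14). With FOXL2 siRNA 14 had a negative one (median -0.12). All genes had medians of -0.01 and -0.03 in these comparisons, and their shares by sign were not worked out. The 18 genes were read on the same arrays, so the counts are descriptions and not separate readings. The difference between both E2 effects had a median of -0.26 over the 18 targets and -0.02 over all genes. Of these targets, 5, chosen after their values were seen, had an unadjusted p below 0.05 for the difference, as had 767 of all 15637 genes. They were Tgfb2 (-0.56), Gadd45a (-0.75), Gadd45b (-0.43) and Rbms3 (-0.45), which leaned down like Ankrd1, and Nt5e (0.82), which leaned up. Their adjusted p lay between 0.514 and 0.990, so none of these differences held over all genes.

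**Figure D5:**
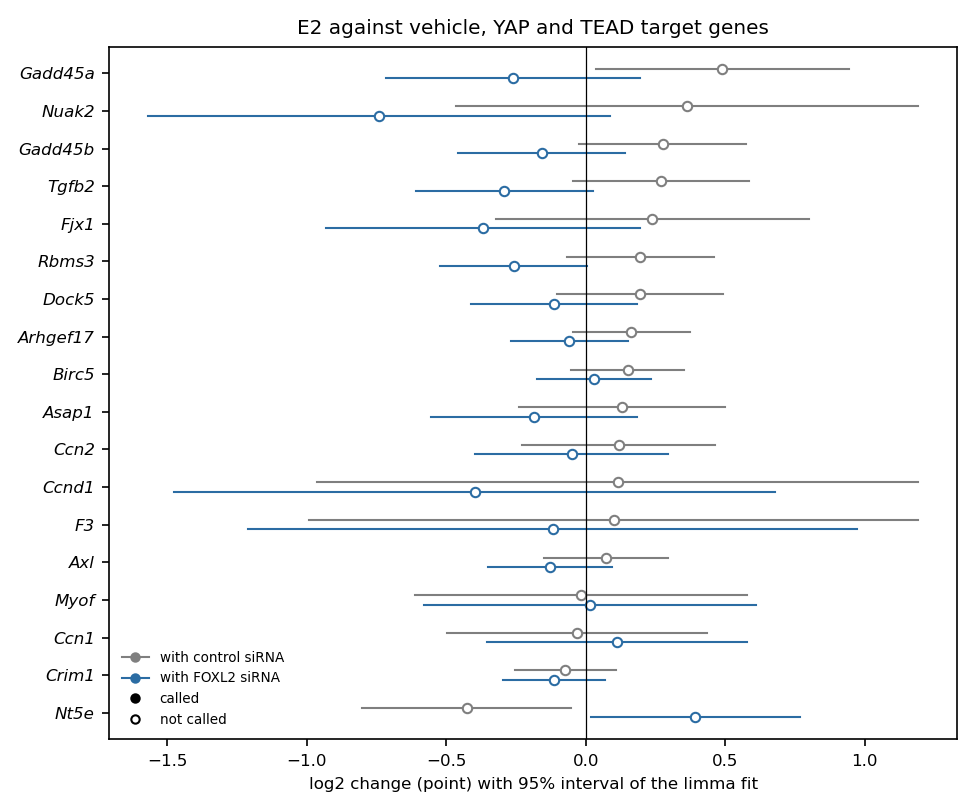
Log2 change on E2 against vehicle for the 18 tested target genes, with control siRNA and with FOXL2 siRNA, with 95% intervals of the limma fit and sorted by the value with control siRNA; open points were not called. Most points with control siRNA lie above 0 and most with FOXL2 siRNA below it, and no point is filled.

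Tead2 had the largest change over both treatments among the called members, and the genes whose levels followed it most closely were looked up. Over the 8 arrays, among 12691 named genes well above background on all of them, Ttc23 had the highest Pearson correlation with Tead2 (0.995), followed by Nab2 (0.991) and Csrp2 (0.990). These values are descriptions over 8 arrays that share the siRNA groups and 1 slide.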

How the data were processed

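Each sample's RNA (50 ng) was labelled with Cy3 and hybridised to a 1-colour Agilent array. The deposited scanner files hold spot intensity from Agilent Feature Extraction 11.5.1.1, background-subtracted and not scaled between arrays. The authors' table holds log2 values per gene. After 1 offset per array it equalled the values used here within 0.001 at 98.7 to 98.9% of genes, was not centred (array medians -4.24 to -3.95), and served as an alternative. Because the deposited files held no mean spot intensity, the normexp alternative used the median.

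Here, 3671 of 62976 spots were controls and were left out, as were 42 non-uniform probes. The 55639 probes used were scaled to each array's 75th percentile (275 to 367 units), 51.4 to 55.7% being well above background and 0 saturated. Probes of an Entrez ID were averaged on the linear scale, and a gene was kept where its median scaled signal reached 10. RefSeq named 22349 genes. The array was designed on mm9 and its positions were not used; promoter windows carry RefSeq's GRCm38.p6 positions. Replicates correlated at 0.987 to 0.990 across genes. Precision is limited by the 2 arrays per group, since p-values measure only the spread between these samples.

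The 4 group means were fitted over all 8 arrays with limma 3.58.1 (R 4.3.3), with an intensity trend, two-sided tests and Benjamini-Hochberg adjustment over 15637 genes at a threshold of 0.05. Probes were fitted likewise over 31486 probes. The fit was run on simulated data with independent noise on each array. That simulation cannot show how the fit behaves where same-numbered arrays deviate together, as they did here. Promoters were searched in RefSeq windows, with Python 3.11.15 and pandas 2.3.3. Named genes were the 10 members with their 14 probes, Foxl2, list genes called in any of 7 comparisons, Ccn1, Ccn2 and Axl, and the 3 genes most like the called member of largest change. The members and lists were chosen with earlier results of these data known. Alternatives were other background corrections, scalings, filters, spread models, call rules, the brightest probe, a replicate block and leaving out each array.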

Additional observations from a re-analysis of the deposited data

How the results depend on the processing

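Leaving out 1 array, with the lone array of that group taken to vary like the other groups, gave 0 to 3 called members for FOXL2 siRNA with vehicle, 0 to 2 with E2 and 3 to 5 over both treatments, beside 2, 1 and 3 with all arrays, and 0 for the other comparisons. Over all genes these fits called 309 to 918, 130 to 629 and 1181 to 1879, beside 1026, 686 and 1967 with all arrays. Over both treatments the calls of Tead1, Tead2 and Ankrd1 held under every alternative that gives a p-value. No call turned its sign: the 6 called member values were computed under 105 alternatives in all, and 12 of these ended the call. Without the intensity trend 1 member was called with vehicle and 0 with E2, Tead1 (adjusted p = 0.0533) and Tead2 (adjusted p = 0.0703) being lost. Over all genes that fit called 633 and 379. With only the groups compared in the fit 0 were called with E2 (Tead2, adjusted p = 0.0503), beside 473 of all genes. The methods give a rule for E2 targets, a log2 difference of 1 or more that exceeds 2 times the summed SDs. Applied here to FOXL2 siRNA, for which the methods do not give it, this rule called 0 members with vehicle and 0 with E2. It called only 460 and 368 of all 15637 genes, so 0 of 10 members says little about them. Quantile normalization called 4 members over both treatments, Yap1 in addition, beside 2091 of all genes.

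The replicate number as a block (replicate block) called 5 members with vehicle, 4 with E2, 7 over both treatments and 1 for the difference between E2 effects, which was Ankrd1 (-0.65, adjusted p = 0.0196). Over all 15637 genes it called 2928, 2329, 4326 and 332, beside 1026, 686, 1967 and 38 without it. The members gained over both treatments were Yap1 (adjusted p = 0.0217), Wwtr1 (0.0163), Tead3 (0.0455) and Amotl2 (0.000303). Same-numbered arrays deviated from their group means together (correlations of 0.327 to 0.445 in 6 pairs of groups). Among stromal markers, Acta2 was at 11.9 to 12.0 on replicate 1 arrays and 13.3 to 13.5 on replicate 2 arrays. Lum was at 6.9 to 7.5 and 4.9 to 6.2. These genes were picked after their values were seen, and the granulosa marker Inhba did not split this way. The methods give pools of 5 mice per replicate. The labels do not say that 1 pool served all groups, so whether the number pairs the samples was not established.

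Values that were never called turned sign. Tead4 with vehicle became -0.031 with normexp background correction. Axl became -0.034 with normexp, -0.052 with quantile normalization and -0.00037 in the authors' table. With 1 array left out, Tead4 lay between -1.14 and 1.36 with vehicle, between -0.29 and 0.96 over both treatments and, for E2 with control siRNA, between -2.11 and 0.39. Lats1 lay between -0.29 and 0.49 with vehicle, -0.076 and 0.40 with E2 and -0.063 and 0.33 over both, Lats2 between -0.22 and 0.13 with E2, Wwtr1 between -0.015 and 0.32 with E2, and Axl between -0.045 and 0.054 over both. Over all 70 values of the 10 members, 51 of 1230 alternatives turned a sign, none of a called value. The cause of these changes was not tested. All 10 members were well above background on every array.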
